A study of Rattus norvegicus with 2 samples.

Results

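Neurexins, neuroligins and calsyntenins are membrane proteins through which nerve cells recognise their partner cells at synapses. The genes described here are 7 members of these families, Nrxn2, Nrxn3, Nlgn1, Nlgn2, Nlgn3, Clstn1 and Clstn3, measured in rat sympathetic neurons. They were taken as every probe set that the platform annotation assigns to exactly 1 of the 7 symbols. This gave 9 probe sets out of 15866 on the array, and 7 genes out of 10411. The genes were selected on their signals and ratios in these same 2 arrays, so every value below is a description and none was tested.

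RNA came from 2 cultures of rat sympathetic neurons, each measured on 1 Affymetrix Rat Expression Set 230A array. In the first, the neurons were grown without their target. In the other, per its title and source name, they were grown with myocytes. The free-text description of that second sample also speaks of neurons grown alone, a conflict that could not be settled here. A wash of neurons off the dish with EDTA, which leaves more adherent cells behind, is described in the extraction protocol text. It is not read here as a difference between the 2 arrays. The labels used here give no strain, age or sex of the rats and no replicate cultures. Each comparison is therefore between 2 arrays, and the spread between cultures is unknown.

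Neurexins sit mainly in the presynaptic membrane and bind neuroligins on the facing cell, and this contact helps organise release sites on one side and receptors on the other. Neuroligin-1 is known mainly from excitatory synapses, neuroligin-2 from inhibitory synapses and neuroligin-3 from both. Calsyntenins are cadherin-related proteins: calsyntenin-1 links vesicles to the kinesin-1 motor during axonal transport, and calsyntenin-3 is a postsynaptic adhesion protein that can induce presynaptic contacts and has been reported to bind neurexins. Sympathetic neurons receive synapses from preganglionic fibres and form varicosities on their targets, so both sides of such contacts can be made by the same cell.

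The promoters of 3 members are shown because these genes carry the contrast described below: Clstn1 was bright and near equal in both arrays, while Clstn3 and Nlgn2 were the members with the larger differences. Each is the RefSeq window from 250 bases before to 50 bases after the annotated gene start, read 5′ to 3′ on the gene's strand. Capitals mark the GC box (GGGCGG or, on the other strand, CCGCCC) and the cyclic AMP response element, or CRE (TGACGTCA).
Clstn1, GRCr8 chr5:165314109-165314408, plus strand: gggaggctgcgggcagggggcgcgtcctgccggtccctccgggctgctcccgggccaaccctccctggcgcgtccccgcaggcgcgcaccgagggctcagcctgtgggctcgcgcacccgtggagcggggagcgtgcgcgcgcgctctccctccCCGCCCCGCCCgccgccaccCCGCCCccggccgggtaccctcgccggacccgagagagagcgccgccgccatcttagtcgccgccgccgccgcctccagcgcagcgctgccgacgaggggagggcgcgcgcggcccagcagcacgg
Clstn3, GRCr8 chr4:159051020-159051319, minus strand: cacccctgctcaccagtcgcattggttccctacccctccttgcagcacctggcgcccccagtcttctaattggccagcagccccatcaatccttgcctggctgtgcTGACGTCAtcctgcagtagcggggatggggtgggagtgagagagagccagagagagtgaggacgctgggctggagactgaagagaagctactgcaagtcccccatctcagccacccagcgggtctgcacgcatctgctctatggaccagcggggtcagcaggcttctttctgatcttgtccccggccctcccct
Nlgn2, GRCr8 chr10:55056529-55056828, minus strand: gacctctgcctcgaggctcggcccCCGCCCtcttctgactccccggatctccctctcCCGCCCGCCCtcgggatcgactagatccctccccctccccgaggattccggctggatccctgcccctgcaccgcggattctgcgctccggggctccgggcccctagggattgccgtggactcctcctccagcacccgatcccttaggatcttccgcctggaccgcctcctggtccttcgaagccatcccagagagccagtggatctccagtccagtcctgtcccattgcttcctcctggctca

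The Clstn1 window had a GC content of 81.7% and 48 CpG dinucleotides, and 1.04% of the 33469 promoter windows in the table held as many. It held 3 GC box matches, some overlapping, and no CRE. The Nlgn2 window also held 3 GC box matches, some overlapping, with 20 CpG dinucleotides. The Clstn3 window differed from both: it had 9 CpG dinucleotides against a median of 7 over all windows, no GC box match, and 1 CRE match that starts 144 bases before the annotated gene start. A GC box match was present in 33.1% of all windows and the full CRE in 1.83%. None of the 3 windows held the E-box CACGTG (6.42% of all windows) or TATAAA on either strand (14.2%). Of the 7 members, 5 had a window in the table. The windows of Nlgn1 and Nlgn3, not shown, held no GC box match either, so its absence is not particular to Clstn3. They had 10 and 16 CpG dinucleotides and no CRE match. A match is a run of letters, and binding to it was not measured.

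**Figure D1:**
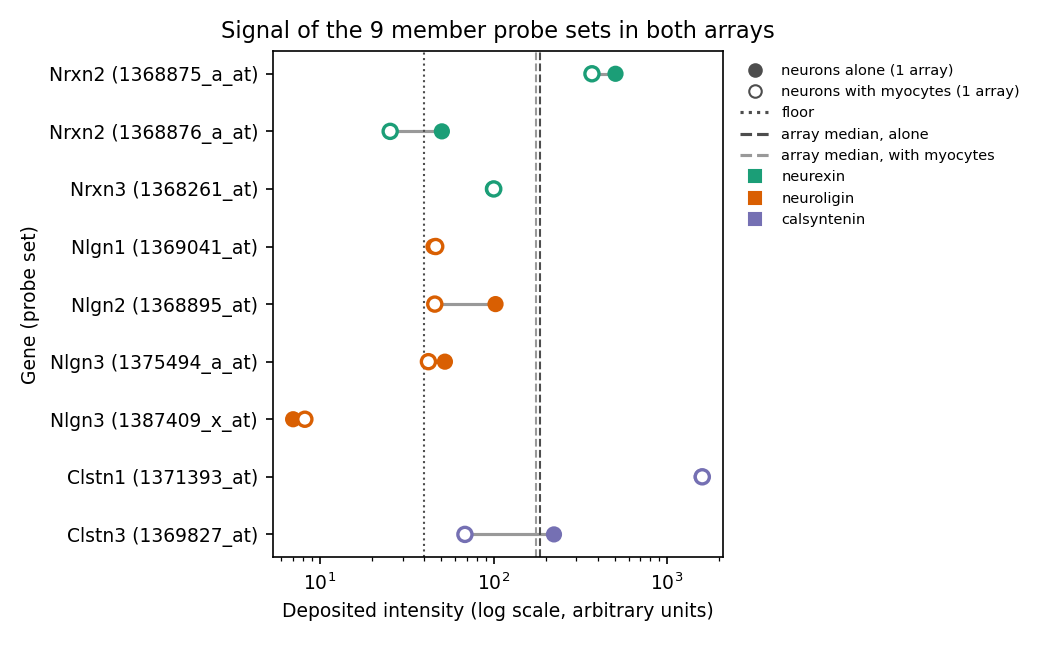
Deposited intensity (log axis, arbitrary units) of each member probe set in neurons alone (filled) and neurons with myocytes (open), 1 array each, with the floor (dotted, 39.6) and the array medians (dashed, 185.7 and 175.0). Clstn3 and Nlgn2 show the wide gaps, the symbols of Clstn1 and Nrxn3 coincide, and 6 of the 9 probe sets lie left of both medians in both arrays.

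Signal reached the array median in at least 1 array for 3 of the 7 genes, for Clstn3 in neurons alone only. A probe set was taken as measured if it reached its array's median (185.7 in neurons alone, 175.0 in neurons with myocytes) in at least 1 array. Of the 9 probe sets, 3 did so, 1 each for Nrxn2, Clstn1 and Clstn3. The other 6 had signals from 7.01 to 102.7 in the 2 arrays. Signals under 39.6, the 20th percentile of both arrays together, were set to that floor before a log2 ratio of neurons with myocytes over neurons alone was formed. Each probe set binds with its own strength, so a higher signal on one probe set than on another does not mean more transcript. Below, the brightest genes of a list are those with the highest signal, and a summed signal is led by its brightest probe sets.

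Clstn3, which encodes the synapse-inducing calsyntenin, had the largest difference of the 7. Its probe set 1369827_at read 223.0 without the target and 68.4 with myocytes. The signal with myocytes was thus the lower one, by 3.26-fold, a log2 ratio of -1.70. Ranked by log2 ratio, it was number 7 from the bottom of the 8308 probe sets that passed the filter. Among the 1197 other probe sets whose mean log2 signal lay within 0.25 of its own, the SD of the log2 ratio was 0.40 and the 5th percentile was -0.69, and 0.167% had a ratio as low. Its place among the 8308 came through neurons alone, because the signal with myocytes was below that array's median. The gene was also picked with this ratio in view, so nothing is read from its rank or from the 0.167%. When the floor was raised to the 40th percentile, the lower signal counted as 119.2 and the log2 ratio was -0.90, and with a pseudocount in place of the floor it was -1.28. Clstn3 has 1 probe set on this array, so no other probe set of the gene can be set beside it. In 25 other genes with a probe set above the filter at least 2-fold lower and others above the filter, those others were all lower in 18, all at least 2-fold lower in 1, and had a median log2 ratio of -0.16.

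Clstn1, the calsyntenin of kinesin-driven vesicles, behaved otherwise. Its probe set 1371393_at read 1583 in neurons alone and 1595 with myocytes. The log2 ratio of 0.01 lay well within the SD of 0.23 among the 443 probe sets of like signal, and its sign turned with the scaling, from -0.08 under scaling to the spiked controls to 0.10 under median scaling. The log2 ratio of Clstn3 was below that of Clstn1 by 1.72. The remaining calsyntenin on the array, Clstn2, is not among the 7 and was below the filter, at 94.0 and 67.8.

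**Figure D2:**
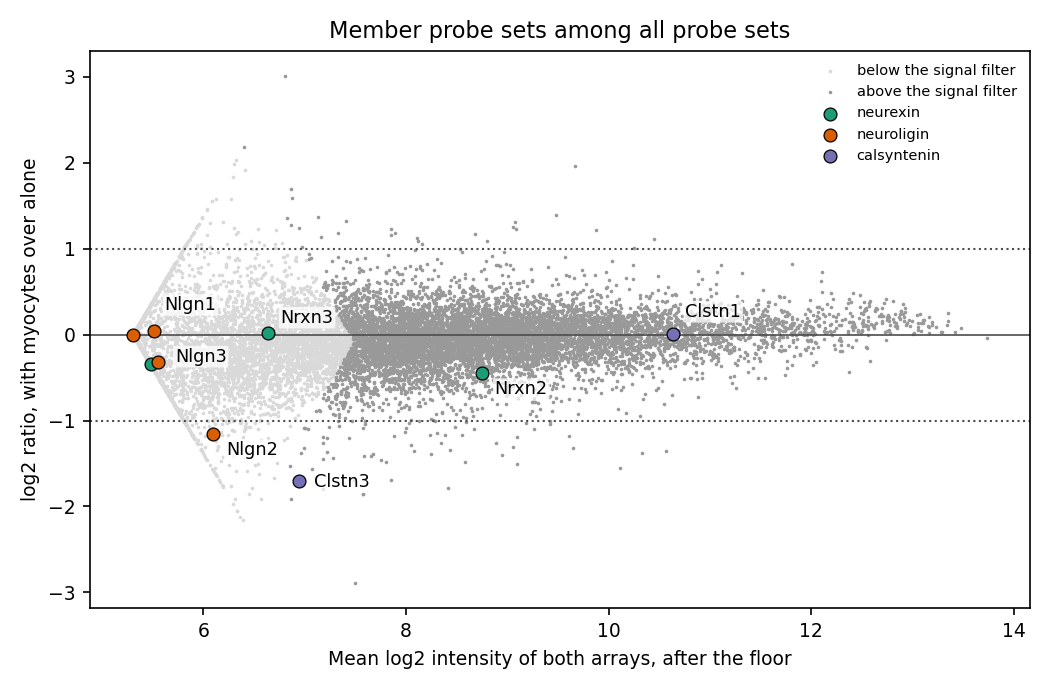
log2 ratio of neurons with myocytes over neurons alone against the mean log2 intensity of both arrays for all 15866 probe sets (grey), with the 9 member probe sets in colour, named at the brightest probe set of each gene, and dotted lines at 2-fold. Clstn3 (-1.70) lies below the grey band, Nlgn2 (-1.16) lies at low signal where the band is wide, and Clstn1 (0.01) lies on the zero line.

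The neurexins, the presynaptic partners, were represented by Nrxn2 and Nrxn3. The brighter Nrxn2 probe set, 1368875_a_at, read 504.4 in neurons alone and 369.0 with myocytes, 1.37-fold lower (log2 ratio -0.45). This lay within the 5th to 95th percentile of the 1369 probe sets of like signal (-0.50 to 0.40), whose SD was 0.29. Across the processing alternatives its ratio was between -0.54 and -0.36. That range is partly fixed, because some settings add a constant or leave this signal unchanged, so it is not read as stability. The other Nrxn2 probe set, 1368876_a_at, had 50.4 and 25.4. It was also lower with myocytes, but the second value was under the floor, so its log2 ratio was -0.35 with the floor and -0.99 without it. Both probe sets carry the suffix for several transcripts of 1 gene, and the arrays do not separate the long and short neurexin forms here. For Nrxn3, probe set 1368261_at had 99.1 in neurons alone and 100.3 in neurons with myocytes, a log2 ratio of 0.02 that was -0.08 under scaling to the spiked controls. Both Nrxn3 values were below the array medians.

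The neuroligins, the receptors of neurexins, were all below the array medians in both arrays. Nlgn2, the neuroligin of inhibitory synapses, read 102.7 in neurons alone and 45.9 with myocytes on probe set 1368895_at. The signal with myocytes was 2.24-fold lower, a log2 ratio of -1.16. At that signal the arrays varied more: among the 1078 probe sets of like mean signal the SD was 0.58, the 5th percentile was -1.19, and 5.75% were as low as Nlgn2 or lower. The ratio was -0.98 under quantile normalization, -0.93 under the lowess correction and -0.74 with the pseudocount, and with the floor at the 40th percentile both signals fell under it and no difference remained. Nlgn1, the neuroligin of excitatory synapses, had 45.1 and 46.4 on probe set 1369041_at, close to the floor in both arrays. Nlgn3 had 52.5 and 42.2 on probe set 1375494_a_at, a log2 ratio of -0.32 that was within the 5th to 95th percentile of like probe sets (-0.54 to 0.29). Its other probe set, 1387409_x_at, had 7.01 and 8.18, both under the floor, so it gives no ratio. The suffix of that probe set marks probes that other transcripts may share.

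As counts, 5 of the 9 member probe sets were lower, 3 were higher and 1 was equal after the floor, where 48.3% of all 15866 probe sets were lower. As reported, the share is near that background. The 3 higher probe sets, those of Nrxn3 (log2 ratio 0.02), Nlgn1 (0.04) and Clstn1 (0.01), were all lower under scaling to the spiked controls (-0.08, -0.05 and -0.08). The 2 probe sets at least 2-fold lower were those of Clstn3 and Nlgn2, against a background of 1.34% of all probe sets (0.818% of those above the filter), and none was at least 2-fold higher (0.517%). The genes were picked with these ratios in view, so nothing is read from either count. Of the 9, 8 lay between the 5th and 95th percentile of probe sets of like signal, and the exception was Clstn3. For the dimmer Nlgn3 probe set, under the floor in both arrays, this was set in advance. The dimmer Nrxn2 probe set was under the floor with myocytes. Nothing is read from this count either. The median log2 ratio of the 7 genes, each by its brightest probe set, was -0.32, against 0 over all 10411 genes. It was 0.01 without the probe sets for several transcripts, which leaves out Nrxn2 and Nlgn3.

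**Figure D3:**
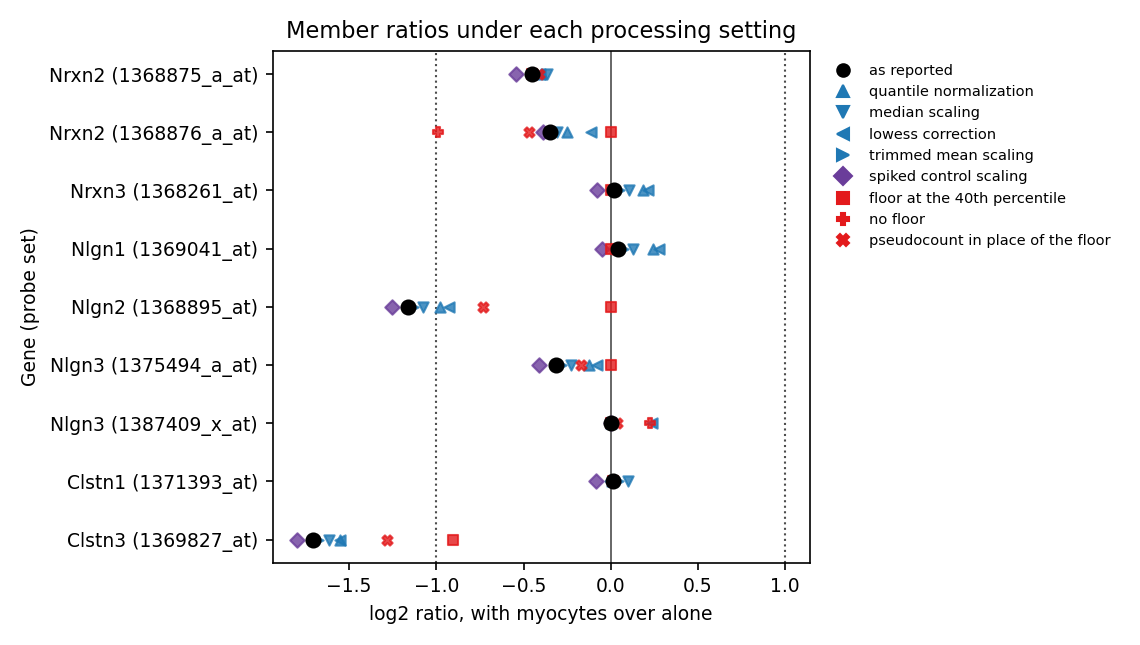
log2 ratio of neurons with myocytes over neurons alone for each member probe set as reported (black) and under 8 other settings of scaling (blue and purple) and of the floor (red), with dotted lines at 2-fold. Clstn3 stays below 0 under every setting drawn, from -1.80 to -0.90, whereas Nlgn2 spreads from -1.26 to 0 and Clstn1 stays near 0.

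Genes that work with the 7 were described from 8 lists of known partners. Of 148 listed genes 93 were on the array under a single symbol and 52 were above the filter. Of the 52, 38 were lower in neurons with myocytes (73.1%), where 52.7% of all 6368 genes above the filter were lower. Their median log2 ratio was -0.17 against -0.01. The count and its background both moved with the scaling, from 32 of 52 (61.5% against 38.7%) under median scaling to 41 of 52 (78.8% against 67.5%) under scaling to the spiked controls. By the brightest probe set of each gene, 2 were at least 1.5-fold lower (3.85%, background 3.3%), 2 were at least 1.5-fold higher (3.85%, background 1.93%), and none reached 2-fold. Other probe sets above the filter went further in some genes, which were picked after seeing the values. That of Efnb1, an ephrin ligand gene, was at -1.37 where the brightest was at 0.18. Those of Celf2, an RNA-binding protein gene, were at -0.89 and 0.30 where the brightest was at -0.42.

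Presynaptic adaptors, which tie the neurexin tail to the release machinery and the cytoskeleton, had 7 genes above the filter. Of these 6 were lower and 1 was higher (5 and 2 under median scaling), with a median of -0.30 (-0.15 when each gene's probe sets were averaged) and none at 1.5-fold. The brightest were the PDZ protein gene Sdcbp (3786 in neurons alone and 3657 with myocytes, a log2 ratio of -0.05 that was 0.04 under median scaling) and the cytoskeletal linker gene Epb41l3 (1784 and 1357), whose other probe set was at 0.16. Picked after seeing the values, the Mint adaptor genes Apba1 (440.8 and 350.4), Apba2 (434.8 and 354.1) and Apba3 (326.7 and 269.9) were all lower. The higher gene, also picked afterwards, was Cask, a scaffold kinase that binds neurexins (151.5 and 183.0). Of the 3 measured ligands of neurexins other than neuroligins 1 was lower and 2 were higher (2 and 1 under scaling to the spiked controls). Among them were the dystroglycan gene Dag1 (1351 and 1487, log2 ratio 0.14, and 0.37 on its other probe set above the filter) and the latrophilin gene Adgrl1 (452.6 and 411.3). Their median of 0.01 changed sign under scaling to the spiked controls (-0.08) and was -0.30 when the probe sets of each gene were averaged.

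On the side of the neuroligins, 9 scaffold and postsynaptic genes were above the filter, 6 lower and 3 higher, with a median of -0.16 (-0.03 with no filter). The split was 5 and 4 under quantile normalization, median scaling and the lowess correction, and 8 and 1 under scaling to the spiked controls. Dlg4, which encodes PSD-95, the scaffold that binds the neuroligin tail, had 371.7 in neurons alone and 208.8 in neurons with myocytes, 1.78-fold lower. No other probe set of Dlg4 was above the filter. Gphn, the gephyrin gene whose product holds neuroligin-2 at inhibitory synapses, was picked after seeing the values and had 193.7 and 160.1. Dlgap1, also picked afterwards and among the 3 higher genes, had 153.6 and 211.7, a log2 ratio of 0.46. Of 11 other trans-synaptic adhesion genes 7 were lower and 4 higher. The split turned to 5 lower and 6 higher, and the median of -0.05 to a positive value, under median scaling (0.04), quantile normalization (0.01) and the lowess correction (0.00). Flrt2, a ligand of latrophilins, was 1.95-fold higher (269.5 and 525.2). The receptor phosphatase gene Ptprs was 1.69-fold higher (461.8 and 781.9) on its brightest probe set, while its others above the filter were at -0.71 and -0.07.

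Of 9 measured partners of calsyntenins and of their transport route 8 were lower and 1 higher (6 and 3 under median scaling), with a median of -0.17. Kif5a, the neuronal heavy chain of kinesin-1, had 918.8 in neurons alone and 533.3 in neurons with myocytes, 1.72-fold lower, and its other probe set was at -0.39. Klc1, the light chain that binds calsyntenin-1, was picked after seeing the values and had 2398 and 2132, with its other probe sets at -0.62 and 0.27. The 1 higher gene, also picked afterwards, was Apbb1 (304.9 and 417.1, log2 ratio 0.45). Of 6 measured sheddases and secretases, enzymes that cut such membrane proteins, 5 were lower (median -0.23), the brightest being the gamma-secretase genes Psenen (935.6 and 868.5) and Aph1a (743.4 and 658.7). Of 7 measured splicing regulators that act on neurexin and other neuronal exons 5 were lower (median -0.19). The brightest of these were the higher ones, Ptbp1 (2716 and 2945) and Khdrbs1 (1299 and 1513).

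**Figure D4:**
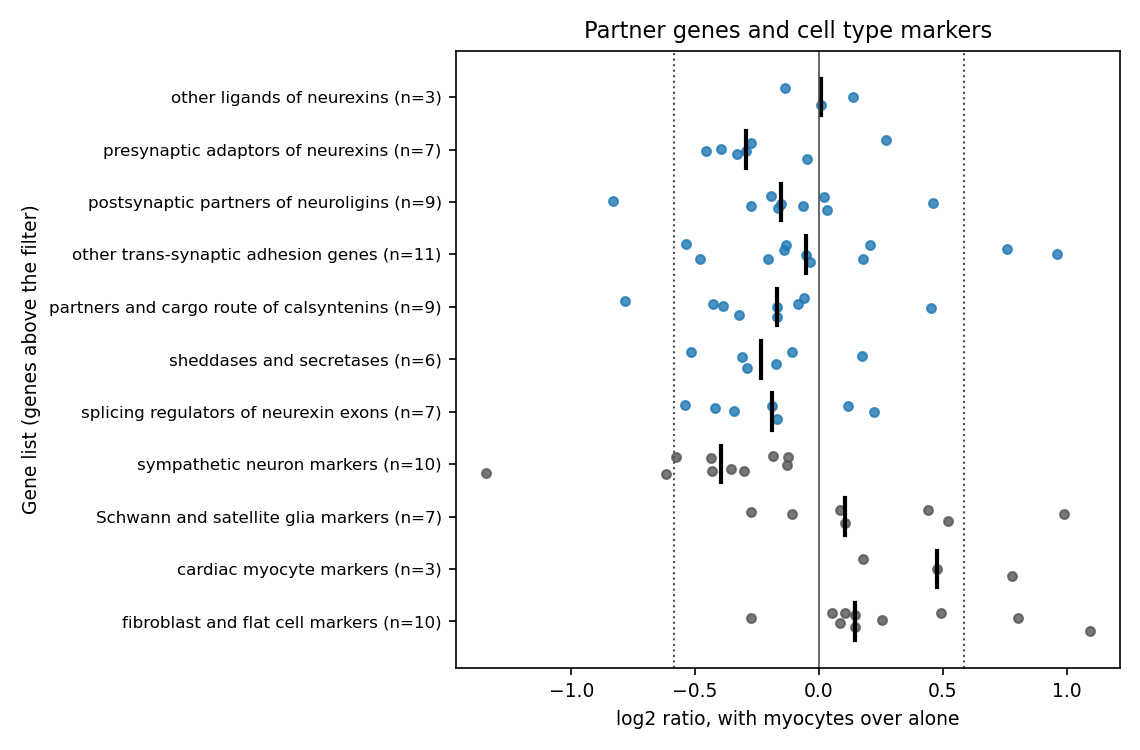
log2 ratio of neurons with myocytes over neurons alone for each gene above the signal filter in the partner lists (blue) and the cell type marker lists (grey), 1 point per gene with vertical jitter, the list median as a black bar and dotted lines at 1.5-fold. The sympathetic neuron markers all lie below 0 and the 3 cardiac markers above the filter lie above 0. The partner genes lie on both sides of 0, with 38 of the 52 below it and 14 above.

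Markers of the cell types in the dish also differed between the arrays, in directions that differed by list. For comparison, the share of lower genes among the 6368 above the filter was 52.7%. Depending on the scaling, that share ran from 38.7% to 67.5%. At least 1.5-fold, 3.3% of these genes were lower with myocytes and 1.93% were higher. The marker counts were not tested against these shares. Both arrays carried strong signal of sympathetic neurons: all 10 markers on the array were above the filter, all 10 were lower in neurons with myocytes, and the median log2 ratio was -0.39. Their signals added up to 37766 without and 30534 with myocytes. Slc6a2, the noradrenaline transporter gene (551.6 and 217.5), and Snap25, a gene of vesicle fusion (1778 and 1159), were past 1.5-fold. Of 10 fibroblast and flat cell markers 9 were higher (median 0.14, or 0.05 under scaling to the spiked controls, summed signal 39419 and 43843), with Dcn (305.7 and 652.0) and Lum (394.6 and 688.9) past 1.5-fold. The exception was Thy1, which neurons express too. The count of higher flat cell markers was 7 under scaling to the spiked controls and 6 under quantile normalization and the lowess correction, where Col1a1, Col1a2 or Vim turned. Of 7 measured glial markers 5 were higher (4 under scaling to the spiked controls; summed signal of the 8 on the array 5769 and 6163), with S100b (263.5 and 523.6) past 1.5-fold. Their median of 0.11 was 0.013 under scaling to the spiked controls and 0.44 without probe sets for several transcripts. The 2 glial markers lower as reported were Mbp (392.0 and 323.9) and Pmp22 (3141 and 2916), whose other probe set above the filter was at -0.50. Of the 9 cardiac markers 6 did not reach the filter, and the 3 others were higher (median 0.48, or 0.18 when the probe sets of each gene were averaged and 0.78 with the filter lowered to the 25th percentile, summed signal of the 9 at 973.0 and 1460), with Nppb (179.9 and 308.9) past 1.5-fold. Among the cardiac markers below the filter, Tnni3 (33.3 and 29.5) and Ryr2 (8.47 and 4.46) were under the floor in both arrays, a log2 ratio of 0. The others below the filter, Myh6, Myh7, Myl2 and Myl3, were higher with myocytes. In such mixed RNA fewer cells of a type and less RNA per cell cannot be told apart, and the part of these shifts in the values of Clstn3, Nlgn2, Nrxn2 and the partner lists was not tested.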

How the data were processed

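Each array gave 1 intensity per probe set, on a linear scale, as deposited by the authors. The series' design text names dChip 1.3 for the quantification, whereas MAS5 stands in the submitters' processing notes. Which of them made the deposited intensity, and with what scaling, is not given in the sources used here. Detection calls were not used. The 2% trimmed means were 367.6 and 360.6, so no further scaling was applied. The number of arrays, 1 per condition, limits the precision.

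Control probe sets (57 of 15923) were left out. Signals under the pooled 20th percentile were set to it, then log2 was taken. Of 15866 probe sets 12783 had 1 symbol, 312 several and 2771 none, and 12748 identifiers matched the GRCr8 RefSeq gene table, used for names. Each gene was represented by its brightest probe set. The like-signal spread covers probe sets within 0.25 of the member's mean log2 signal. The ratio code was tested on simulated data, where known folds were checked on bright probe sets only. Python 3.11.15, pandas 2.3.3 and statsmodels 0.14.6 (lowess, span 0.3) were used.

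Named were all 7 members with every probe set and, of each list, up to 6 genes above the filter past 1.5-fold or else its 2 brightest. Other genes are said to be picked after seeing the values. The members and lists were chosen with earlier results of these data known. No likeness of pattern was ranked, since 2 arrays give 1 difference.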

Additional observations from a re-analysis of the deposited data

How the results depend on the processing

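The member values were recomputed under 11 listed alternatives and under scaling to 18 spiked control probe sets, which was chosen after seeing the data. The median log2 ratio of probe sets above the filter was -0.02 as reported, 0.06 when scaled to a common median and -0.12 when scaled to the spiked controls. The 2 member probe sets at least 2-fold lower, Clstn3 and Nlgn2, became 1 under quantile normalization, 1 under the lowess correction, 1 with a pseudocount in place of the floor and 0 with the floor at the 40th percentile. Clstn3 was the one that stayed past 2-fold in the first 3 of these. No member was 2-fold higher under any of them. The number of member probe sets above the filter was 3 as reported, 5 when the filter was lowered to the 25th percentile and 9 when it was dropped. The median log2 ratio of the 7 genes, -0.32 as reported, was 0 with the floor at the 40th percentile and 0.011 without probe sets for several transcripts, and between -0.41 and -0.08 otherwise. The raised floor sets dim signals equal by construction, and the last of these leaves out Nrxn2 and Nlgn3. The cause of the other changes was not tested. Over the 9 probe sets, 64 of 74 recomputed ratios moved by less than the SD among probe sets of like signal. Much of that count is fixed by the settings. Median, trimmed mean and spiked control scaling shift ratios above the floor by a constant, and dropping the floor leaves them unchanged. The count is therefore not read as stability. No paired analysis was possible because each condition has 1 array. For the same reason no replicate could be left out. Of the 9 member probe sets 6 were below the array medians in both arrays, among them all of Nrxn3 and the neuroligins. No detection limit was computed, so small differences in these genes are neither shown nor excluded.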
